A study of Carassius auratus with 6 samples.

Results

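The genes described here are the Wnt ligands of the goldfish eye, their frizzled and LGR receptors, the R-spondins, the secreted Wnt inhibitors, and the axin and TCF/LEF proteins inside the cell. They were chosen by name: a gene model was a member if the gene name of its best Swiss-Prot protein match began with wnt, fzd, sfrp, rspo or axin and a digit, or was dkk1, dkk2, wif1, frzb, lgr4, lgr6, tcf7l1, tcf7l2 or lef1, with any a or b suffix. Of 56251 gene models in the deposited table, 138 with 47 names were members. No model was named notum, dkk4 or lgr5. The rule reads names and no expression values, but it was drawn up with results of these data known. Of the 138 members, 95 passed the low-value filter, which asked for at least 1 FPKM (reads per kilobase of gene model, scaled to the library total) in 3 of the 6 libraries. The other 43 did not, and 2 of these were at 0 in every library.

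Whole eyeballs of 1-winter-year-old goldfish (Carassius auratus) were sequenced as RNA, 3 libraries titled C and 3 titled R. One group of 3 fish had normal eyes and came from a farm in Jiangsu, and the other 3 fish had celestial eyes (CE), a fancy trait in which the eyes point upward, and came from a farm in Beijing. The labels contradict each other on the letters: the sample labels make C normal and R celestial-eyed, and the series design makes R normal and C celestial-eyed. The letters are used without a phenotype, and a change is always that of C relative to R. Farm and phenotype cannot be told apart, and no strain, treatment or allele is labelled beyond this. Which fish gave which library is not labelled. A p-value therefore covers only the variation among these libraries, which may be technical.

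Wnt proteins are secreted lipid-modified ligands that bind frizzled receptors. In the canonical branch, frizzled and the co-receptors LRP5 and LRP6 stop a complex built on axin and APC from destroying beta-catenin, which then acts in the nucleus with TCF/LEF factors. Dickkopf proteins block the co-receptors, WIF1 and the secreted frizzled-related proteins bind Wnts outside the cell, and R-spondins, through LGR receptors, keep frizzleds on the surface. In vertebrate eyes the pathway is known for roles in the corneal and surface epithelium, the ciliary margin, the lens and the retinal vessels.

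The libraries held 9444623 to 11317200 reads in gene models, and 3 reads in a model of 1 kb equal 0.265 to 0.318 FPKM. Below, the values of C and of R are listed in the order of libraries 1, 2 and 3, a value with its SE is a log2 fold change of C against R, and a fold is a ratio of group means in FPKM. Intervals of read ratios cover counting error only. Positions are those of the files, whose assembly is not named. The letter separated the libraries: correlations of log2(FPKM + 1) were 0.946 to 0.966 within a letter and 0.862 to 0.884 between letters. The median log2 ratio of C to R over all tested models was -0.09. Photoreceptor markers summed to between 25286 and 34261 FPKM and lens markers to between 16767 and 36998 FPKM, so the defining genes of an eyeball were present in every library.

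Among the tested Wnt members, lower levels in C were more frequent than higher ones. Of the 95, 29 (30.5%) were lower in C and 10 (10.5%) higher at an adjusted p under 0.05 (limma on log2(FPKM + 1), Benjamini-Hochberg over all 33907 tested models). Over all tested models 11.6% were lower, 8.67% higher and 20.2% either. The median log2 fold change of the 95 was -0.34. In 37 members every C library lay below every R library, and in 13 every C library lay above, against 25.1% and 16.3% of all tested models. These shares are partly set by the filter: 11 members passed it through the R libraries alone, 10 of them called lower, and none passed through the C libraries alone. Among the 84 members with at least 1 FPKM in a library of each group, 19 (22.6%) were lower and 10 higher, against 9.32% lower of the 32273 models of that kind in the table. With no filter, 33 of 136 members were lower and 8 higher, against 7.43% and 5.33% of all models. With a mean of at least 1 FPKM as the filter, 23 of 87 were lower and 11 higher, against 11% and 8.41%. With a mean of at least 5 FPKM, lower calls did not outnumber higher ones. There 3 of 21 members (14.3%) were lower, against 10.15% of all models, and 4 were higher. Higher calls were 57.1% of the member calls and 53.4% of all calls in that fit. Leaving out R2 left 17 lower calls, 17.9% of members against 5.69% of all models. The higher calls numbered 4 without C1, R1 or R2 and 6 without R3. They were 15.4% to 20% of the member calls in these fits, and higher calls were 42.8% to 46.4% of all calls. The share of members called is a description, since the list was drawn up with results of these data known.

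**Figure D1:**
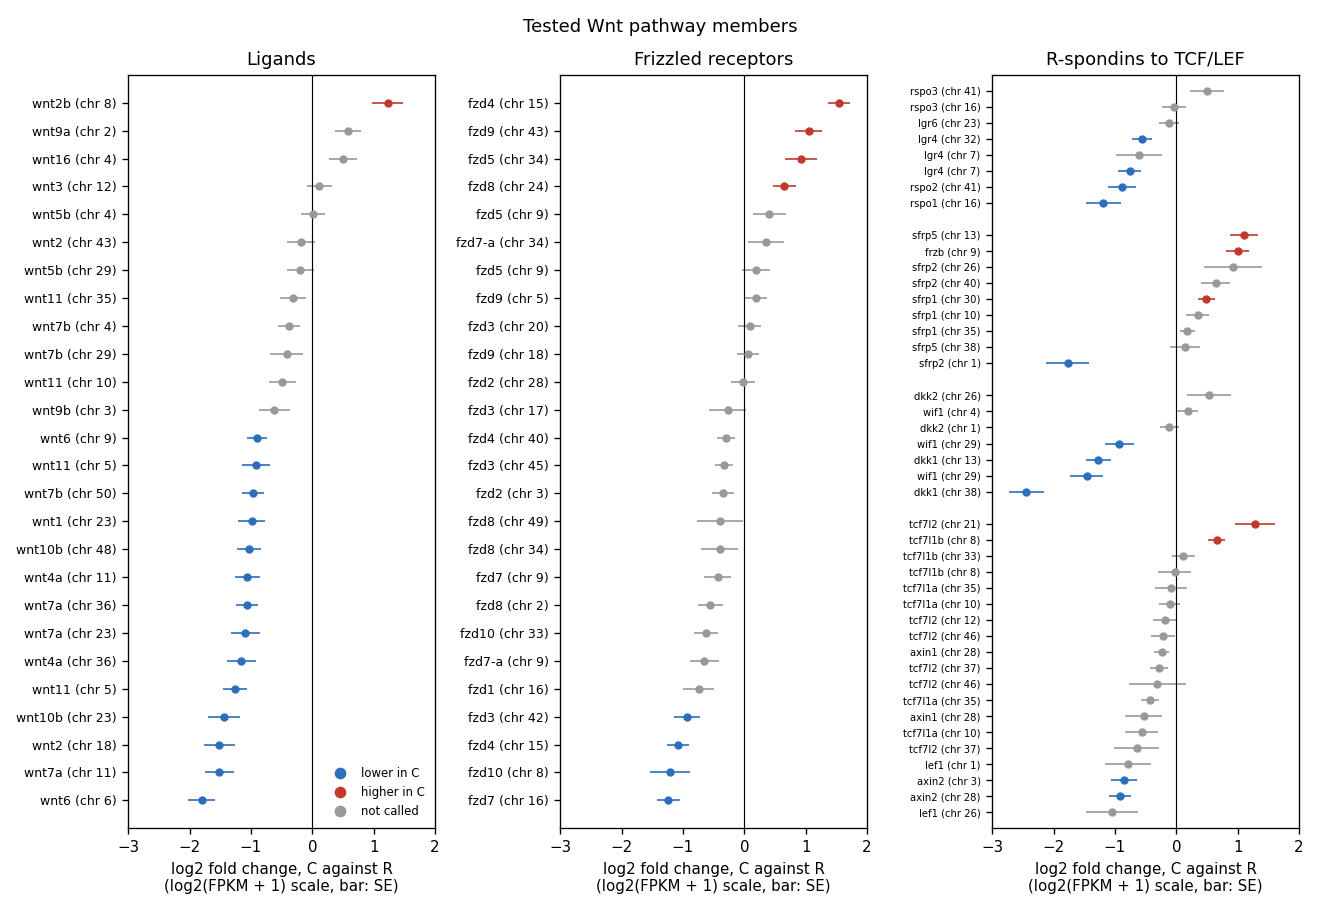
Log2 fold change, C against R, of each of the 95 tested members on the log2(FPKM + 1) scale, with its standard error as a bar. Blue points were called lower in C, red points higher and grey points not called. Ligands and the WIF1 and DKK1 inhibitors lie mostly to the left of 0, and 8 of the 9 SFRP and FRZB models lie to the right.

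Ligands held 14 of the 29 lower calls. Of 49 ligand models, 26 were tested. Besides the 14 (53.8%) lower in C, 1 (3.85%) was higher and 11 were not called, with a median log2 fold change of -0.91. Of all tested models 11.6% were lower and 8.67% higher. Summed over all 49 models, ligand FPKM was 46.6, 62.1 and 51.0 in C and 97.3, 96.7 and 88.0 in R. No C library reached the level of any R library. In eyeballs, fewer cells of a type and less RNA per cell cannot be told apart. Of the 26 tested models, 7 passed the filter through R alone, all called lower. They were both tested wnt6 copies, wnt1 and wnt7a on chromosome 23, wnt10b on chromosome 48, wnt7b on chromosome 50 and wnt4a on chromosome 36. Among the 19 others, 7 (36.8%) were lower and 1 was higher. Of all tested models with at least 1 FPKM in a library of each group, 9.32% were lower.

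Wnt6, a ligand made by many embryonic epithelia, had the largest change among tested ligand models. This held on the log2(FPKM + 1) scale and as a ratio of group means. Both tested copies passed the filter through R alone, so this rank is partly set by the filter. The chromosome 6 copy (Cau.06G0003830, chr6:10155000-10158918, RefSeq wnt6a) had 0.512, 0.493 and 0.512 FPKM in C and 3.12, 5.87 and 4.13 FPKM in R. Every C value was below every R value, 8.64-fold on the group means, with a log2 fold change of -1.80 ± 0.22 (SE, adjusted p = 0.00164). These values rest on 19 reads in C and 172 in R, a ratio of C to R per library total of 0.115 (exact 95% interval 0.0678 to 0.186). The chromosome 9 copy (Cau.09G0004870, RefSeq wnt6b) stood at 0.232, 0.372 and 0.199 FPKM in C and 1.33, 1.4 and 1.35 FPKM in R. Its groups did not overlap either, and its log2 fold change was -0.90 ± 0.17 (SE, adjusted p = 0.0089). Summed over its 3 models, wnt6 stood at 0.812 ± 0.118 FPKM in C and 5.94 ± 1.44 FPKM in R (mean ± SD, n = 3 each).

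Wnt7a, known in human limbal cells for maintaining corneal epithelial fate, was lower in C in each of its 3 tested copies. The chromosome 23 copy passed the filter through R alone. Chromosome 11 (Cau.11G0005800) had 0.995, 1.18 and 1.41 FPKM in C and 7.84, 4.47 and 4.08 FPKM in R. Chromosome 36 (Cau.36G0006620) had 1.31, 1.65 and 1.04 FPKM in C and 4.26, 4.01 and 3.28 FPKM in R. Chromosome 23 (Cau.23G0000480) had 0.463, 0.0637 and 0.113 FPKM in C and 2.35, 1.38 and 1.1 FPKM in R. No C library reached an R library in any of the 3. Their log2 fold changes were -1.52 ± 0.24 (SE, adjusted p = 0.00471), -1.06 ± 0.18 (SE, adjusted p = 0.00658) and -1.09 ± 0.24 (SE, adjusted p = 0.0174). The chromosome 23 call was lost without R1 or R2, where adjusted p was 0.0503 to 0.0513. The sum over the 4 wnt7a models was 2.8 ± 0.239 FPKM in C and 11.4 ± 3.59 FPKM in R (mean ± SD, n = 3 each), 4.07-fold lower in C.

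Wnt7b, the closest relative of Wnt7a, was called in 1 of 3 tested copies. The chromosome 50 model (Cau.50G0000730) had 0.0769, 0.296 and 0.132 FPKM in C and 1.48, 1.32 and 1.03 FPKM in R, with a log2 fold change of -0.96 ± 0.18 (SE, adjusted p = 0.00971). It passed the filter through R alone and rests on 7 reads in C and 55 in R. The copies on chromosomes 4 and 29 were not called: Cau.04G0006270 had 2.63, 3.26 and 4.2 FPKM in C and 5.16, 4.85 and 3.93 FPKM in R, and Cau.29G0005920 had 1.55, 1.57 and 2.58 FPKM in C and 1.65, 3.8 and 3.37 FPKM in R. In both, libraries of the groups overlapped. The wnt7b sum of 7 models was lower in C at -0.77 ± 0.20 (SE, adjusted p = 0.0346), but the call was lost without C1, C2, R1, R2 or R3, where adjusted p was 0.0619 to 0.126, and with the median log2 ratio set to 0 or quantile normalization, where it was 0.0564 to 0.0722.

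Wnt1 and Wnt10b, canonical ligands whose genes lie side by side, were both lower. Of their tested models, wnt1 on chromosome 23 and wnt10b on chromosome 48 passed the filter through R alone. On chromosome 23 wnt10b (Cau.23G0003440, chr23:15980925-15984738, minus strand) and wnt1 (Cau.23G0003450, chr23:15989468-15993138, plus strand) are head to head with 4730 bases between them, and on chromosome 48 the same pair stands with 4536 bases between them. The wnt10b copies had 0.952, 1.22 and 0.272 FPKM in C and 4.57, 4.09 and 2.91 FPKM in R on chromosome 23, and 0.0764, 0.147 and 0.262 FPKM in C and 1.83, 1.31 and 1.02 FPKM in R on chromosome 48 (Cau.48G0007100). Both were lower in C, with log2 fold changes of -1.44 ± 0.26 (SE, adjusted p = 0.00799) and -1.03 ± 0.20 (SE, adjusted p = 0.0101). Wnt1 on chromosome 23 had 0.557, 0.0537 and 0.0478 FPKM in C and 1.18, 1.66 and 1.3 FPKM in R, a log2 fold change of -0.99 ± 0.22 (SE, adjusted p = 0.0182), and its C value rests mostly on C1. That call was lost without R2 or R3, where adjusted p was 0.0511 to 0.0705. The chromosome 48 wnt1 model (Cau.48G0007110) was under the filter, at 0.0557, 0.107 and 0.0478 FPKM in C and 1.07, 1.11 and 0.976 FPKM in R. It had 4 reads in C and 63 in R, a ratio of C to R per library total of 0.0663 (exact 95% interval 0.0175 to 0.178). Summed over copies, wnt1 was lower at -1.43 ± 0.20 (SE, adjusted p = 0.00347) and wnt10b at -1.66 ± 0.23 (SE, adjusted p = 0.00297).

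Wnt4a, whose mammalian relative Wnt4 is known from kidney and ovary development, was lower in both tested copies. The chromosome 36 copy passed the filter through R alone. Chromosome 11 (Cau.11G0003150) had 0.97, 1.59 and 0.831 FPKM in C and 4.19, 3.15 and 2.91 FPKM in R, and chromosome 36 (Cau.36G0009190) had 0.874, 0.337 and 0.974 FPKM in C and 2.6, 3.79 and 2.19 FPKM in R. The groups did not overlap in either copy, and the log2 fold changes were -1.06 ± 0.21 (SE, adjusted p = 0.0115) and -1.16 ± 0.24 (SE, adjusted p = 0.0135). The second call was lost without R2, where adjusted p was 0.0529.

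Wnt11, known in zebrafish for guiding cell movements in gastrulation, was lower on chromosome 5 and not called elsewhere. Its chromosome 5 models share 1 RefSeq locus and may be pieces of 1 gene. The piece Cau.05G0013030, 222 bases long, had 1.91, 1.38 and 1.23 FPKM in C and 5.96, 5.17 and 3.98 FPKM in R, and the piece Cau.05G0013040 had 1.48, 0.658 and 1.27 FPKM in C and 3.61, 3.19 and 2.28 FPKM in R. Both were lower in all C libraries, at -1.27 ± 0.19 (SE, adjusted p = 0.00425) and -0.92 ± 0.23 (SE, adjusted p = 0.0265). The first call was lost with limma-voom on recovered reads, where adjusted p was 0.0657. The second call was lost without C2, R1 or R2, where adjusted p was 0.0553 to 0.0926, and with quantile normalization, where it was 0.069. Chromosome 10 (Cau.10G0007600) had 4.57, 3.07 and 2.86 FPKM in C and 4.15, 5.06 and 6.72 FPKM in R. Chromosome 35 (Cau.35G0006990) had 1.53, 1.65 and 1.43 FPKM in C and 2.89, 2.29 and 1.47 FPKM in R. These 2 overlapped between groups, at log2 fold changes of -0.49 and -0.32. The wnt11 sum was lower in C at -0.96 ± 0.15 (SE, adjusted p = 0.00509). It adds the FPKM of both chromosome 5 pieces, so that locus counts more than once if they are 1 gene.

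Wnt2, a canonical ligand, held the ligand model with the highest mean, on chromosome 18. That copy (Cau.18G0003860, chr18:10110752-10118238) had 1.59, 3.55 and 3.08 FPKM in C and 10.8, 7.03 and 10.9 FPKM in R, with a log2 fold change of -1.52 ± 0.26 (SE, adjusted p = 0.0063). The chromosome 43 copy (Cau.43G0004750) had 2.04, 3.07 and 1.41 FPKM in C and 2.86, 2.11 and 2.63 FPKM in R and was not called (adjusted p = 0.607). Its groups overlapped.

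Wnt2b, known from the ciliary margin of the chick eye, was the ligand called higher in C. Its chromosome 8 model (Cau.08G0008150, chr8:15864669-15875522) had 3.91, 6.42 and 6.78 FPKM in C and 1.11, 2.17 and 2.3 FPKM in R. All C libraries lay above all R libraries, 3.07-fold, at +1.23 ± 0.25 (SE, adjusted p = 0.0141). Wnt9a was higher only as a sum over its 3 models, at 3.22, 9.47 and 4.1 FPKM in C and 1.69, 1.96 and 1.33 FPKM in R. C2 was the highest. The change was +1.20 ± 0.32 (SE, adjusted p = 0.0346), a call lost without R1, R2 or R3, where adjusted p was 0.0845 to 0.11. Most of that sum in C2 came from the model Cau.27G0001160, which was under the filter with 0.863, 6.13 and 2.31 FPKM in C and 0.104, 0.195 and 0.27 FPKM in R. The other tested ligand names, wnt3, wnt5b, wnt9b and wnt16, and the chromosome 2 copy of wnt9a were not called, with log2 fold changes from -0.62 for wnt9b to 0.58 for wnt9a.

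**Figure D2:**
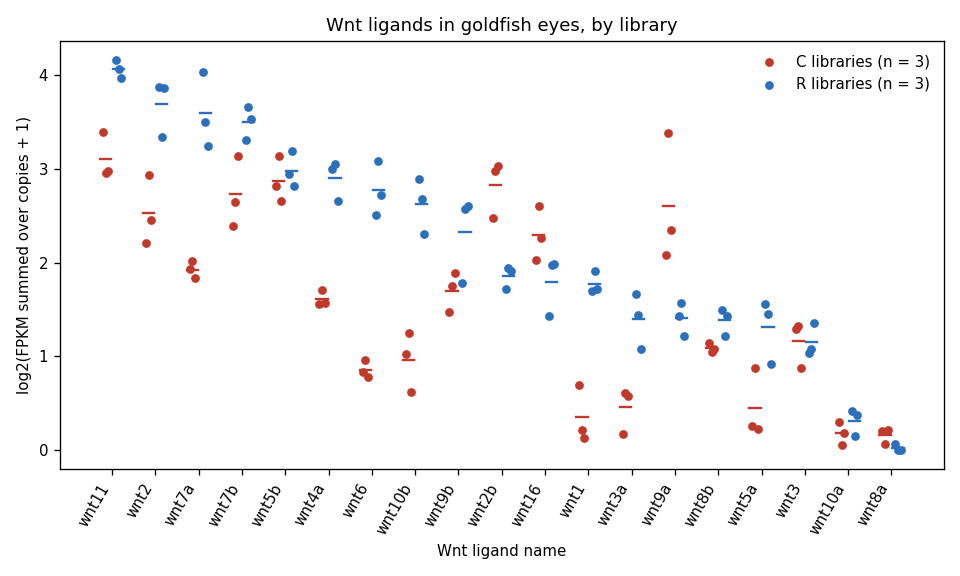
Each Wnt ligand name with its FPKM summed over all copies, as log2(sum + 1), in each of the 3 C and 3 R libraries, ordered by the R mean. Short bars are group means. The C points of wnt7a, wnt4a, wnt6, wnt10b and wnt1 lie below all R points, and those of wnt2b lie above.

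Markers of several cell types also differed between the groups, in either direction. Lists with mostly higher calls are given with the SFRP inhibitors below. Of 27 tested models of the surface epithelium list, 12 were lower in C and 7 higher, and its summed level was 802 to 1020 FPKM in C and 1073 to 1523 FPKM in R. Within it, tp63, the regulator of stratified epithelium, was at 14.6, 10.1 and 13.7 FPKM in C and 46.9, 40.3 and 31.0 FPKM in R. Krt18, a keratin of simple epithelia and the most abundant name of the list in C, was at 557, 547 and 430 FPKM in C and 405, 443 and 371 FPKM in R, and its groups overlapped. Cldn7, a tight junction protein, overlapped as well. Krt17, another keratin, made up most of the difference between the summed levels. It was at 93.1, 94.0 and 225 FPKM in C and 677, 537 and 222 FPKM in R, and its groups overlapped too. The keratin names krt4, krt5 and krt12 matched no model. Of 36 lens models, 16 were lower and 1 higher, with sums of 16767 to 29619 FPKM in C and 34331 to 36998 FPKM in R. Of 33 models of bipolar, amacrine and horizontal cells, 15 were lower and none was higher, with sums of 449 to 505 FPKM in C and 602 to 748 FPKM in R. Over all tested models 11.6% were lower and 8.67% higher. Of the remaining lists, skeletal muscle had 2 higher and none lower of 23, and leukocytes none higher and 5 lower of 27. Photoreceptors had 3 higher and 1 lower of 12, and ganglion cells 1 and 1 of 12. Endothelium and pericytes had 1 higher and 2 lower of 13. The part of these cell types in the ligand result was not tested.

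Frizzleds held calls in both directions. Of 29 models, 26 were tested, with a median log2 fold change of -0.31. Of the 26, 4 (15.4%) were higher in C and 4 (15.4%) lower, against 8.67% and 11.6% of all tested models. The fzd3 copy called lower, on chromosome 42, passed the filter through R alone. Among the 24 models with at least 1 FPKM in a library of each group, 3 (12.5%) were lower and 4 higher. Of all 32273 tested models of that kind, 3007 (9.32%) were lower and 2515 higher. The summed level was 89.7 ± 3.27 FPKM in C and 97.2 ± 2.51 FPKM in R (mean ± SD, n = 3 each). By name, fzd3, fzd7 and fzd10 were lower in sum, fzd9 was higher, and fzd1, fzd2, fzd4, fzd5, fzd7-a and fzd8 were not called. Most of the fzd7 sum came from a piece that RefSeq names fzd1, described below.

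Fzd4, the receptor of Norrin in the retinal vessels of mice and humans, had copies called in opposite directions. On chromosome 15, Cau.15G0012090 (chr15:27676769-27681571, plus strand) had 1.87, 2.55 and 1.69 FPKM in C and 6.02, 4.59 and 5.65 FPKM in R. On the same chromosome, Cau.15G0012470 (chr15:28560032-28563721, minus strand) had 6.2, 5.25 and 4.1 FPKM in C and 1.04, 1.22 and 1.07 FPKM in R. The first was lower in C at -1.08 ± 0.18 (SE, adjusted p = 0.00572) and the second higher at +1.54 ± 0.18 (SE, adjusted p = 0.0015), with no overlap of groups in either. Both models carry the accession of 1 RefSeq locus, so reads of near-identical copies may have been divided between them. The chromosome 40 copy (Cau.40G0011250) had 5.89, 5.32 and 4.58 FPKM in C and 6.15, 6.33 and 7.5 FPKM in R and was not called. The sum over the 3 models was 12.5 ± 1.89 FPKM in C and 13.2 ± 1.04 FPKM in R (mean ± SD, n = 3 each), and was not called (adjusted p = 0.722).

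Among the other frizzled models lower in C, a piece of fzd1 had the largest change on the log2(FPKM + 1) scale, though not as a ratio of group means. The model Cau.16G0014260 (chr16:33407734-33408357), named fzd7 by Swiss-Prot and fzd1 by RefSeq, had 3.56, 3.27 and 3.49 FPKM in C and 11.6, 10.3 and 7.08 FPKM in R, with a log2 fold change of -1.24 ± 0.18 (SE, adjusted p = 0.00379). The next model, Cau.16G0014270, starts 165 bases on, is named fzd1 in both sources and had 4.09, 2.22 and 4.6 FPKM in C and 6.39, 8.44 and 5.12 FPKM in R. It too was lower in every C library but was not called, at -0.74 ± 0.25 (SE, adjusted p = 0.0771). The remaining fzd7 model, Cau.09G0004410 on chromosome 9, had 1.3, 2.61 and 1.16 FPKM in C and 2.5, 2.5 and 2.62 FPKM in R and overlapped between groups.

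Fzd10 and fzd3 were lower in 1 copy each. Fzd10 on chromosome 8 (Cau.08G0009610) had 0.336, 1.19 and 1.97 FPKM in C and 4.79, 4.35 and 2.52 FPKM in R and was lower at -1.22 ± 0.33 (SE, adjusted p = 0.0362). Its call was lost without C1, C2, R1 or R2, where adjusted p was 0.06 to 0.118, and with a pseudocount of 0.1, no low-value filter, the median log2 ratio set to 0, quantile normalization or the replicate block, where it was 0.0516 to 0.0715. The chromosome 33 copy (Cau.33G0008460) had 0.373, 0.42 and 0.907 FPKM in C and 1.38, 1.63 and 1.2 FPKM in R and was not called. Every C library was below every R library in both copies. Fzd3, a receptor of axon guidance, was lower on chromosome 42 (Cau.42G0001720), with 0.445, 0.666 and 0.466 FPKM in C and 2.71, 1.7 and 1.44 FPKM in R and a log2 fold change of -0.93 ± 0.21 (SE, adjusted p = 0.0195). The call was lost without C1, R1 or R2, where adjusted p was 0.0547 to 0.0658, and with quantile normalization, where it was 0.0515. Its other tested copies were not called. Cau.17G0002140 had 0.511, 2.3 and 1.9 FPKM in C and 2.13, 2.16 and 1.56 FPKM in R. Cau.20G0009040 had 1.26, 1.64 and 1.35 FPKM in C and 1.21, 1.0 and 1.66 FPKM in R. Cau.45G0008000 had 4.7, 4.78 and 3.7 FPKM in C and 5.08, 6.18 and 6.03 FPKM in R, and of these 3 it alone had groups that did not overlap.

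Fzd5, fzd8 and fzd9 were higher in 1 copy each. Fzd5, known for its role in retinal progenitors of the frog, was higher on chromosome 34 (Cau.34G0007310), with 5.01, 4.75 and 7.11 FPKM in C and 2.71, 1.42 and 3.53 FPKM in R and a log2 fold change of +0.93 ± 0.26 (SE, adjusted p = 0.0414). Its call was lost without C1, C2, C3, R1 or R2, where adjusted p was 0.0539 to 0.106, and with a pseudocount of 0.1 or no low-value filter, where it was 0.0532 to 0.0596. The pieces on chromosome 9 were not called: Cau.09G0005930 had 6.48, 3.84 and 6.41 FPKM in C and 3.51, 5.48 and 5.13 FPKM in R, and Cau.09G0005940 had 2.67, 4.89 and 6.19 FPKM in C and 3.08, 2.42 and 3.79 FPKM in R. Fzd5 thus overlapped between groups on chromosome 9 and not on chromosome 34.

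Fzd8 on chromosome 24 (Cau.24G0000800) was the frizzled model with the highest mean, at 15.5, 10.16 and 15.4 FPKM in C and 7.86, 9.64 and 7.32 FPKM in R. It was higher in C at +0.65 ± 0.19 (SE, adjusted p = 0.0457), a call lost without C1, C3, R1, R2 or R3, where adjusted p was 0.0716 to 0.137, and with a pseudocount of 0.1, no low-value filter or the replicate block, where it was 0.0507 to 0.0842. The other fzd8 models were lower in level and not called. Cau.02G0012310 had 0.534, 0.514 and 1.01 FPKM in C and 1.44, 1.79 and 1.16 FPKM in R. Cau.34G0007300, a piece of the chromosome 34 fzd5 locus, had 1.17, 2.53 and 1.75 FPKM in C and 1.68, 2.37 and 4.38 FPKM in R. Cau.49G0002440 had 0.551, 0 and 1.18 FPKM in C and 1.59, 0.249 and 1.38 FPKM in R. Of these 3, the chromosome 2 copy had all C libraries below all R libraries and the others overlapped.

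Fzd9 on chromosome 43 (Cau.43G0009330, RefSeq fzd9b) had 8.54, 4.9 and 7.26 FPKM in C and 3.37, 2.85 and 2.12 FPKM in R and was higher at +1.05 ± 0.22 (SE, adjusted p = 0.0153). That call was lost without C1, R2 or R3, where adjusted p was 0.052 to 0.0559. Cau.05G0006450 had 2.0, 1.81 and 2.39 FPKM in C and 1.34, 1.7 and 2.08 FPKM in R, and Cau.18G0009020 had 3.81, 3.44 and 2.6 FPKM in C and 2.68, 3.34 and 3.28 FPKM in R. Both overlapped between groups and were not called.

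**Figure D3:**
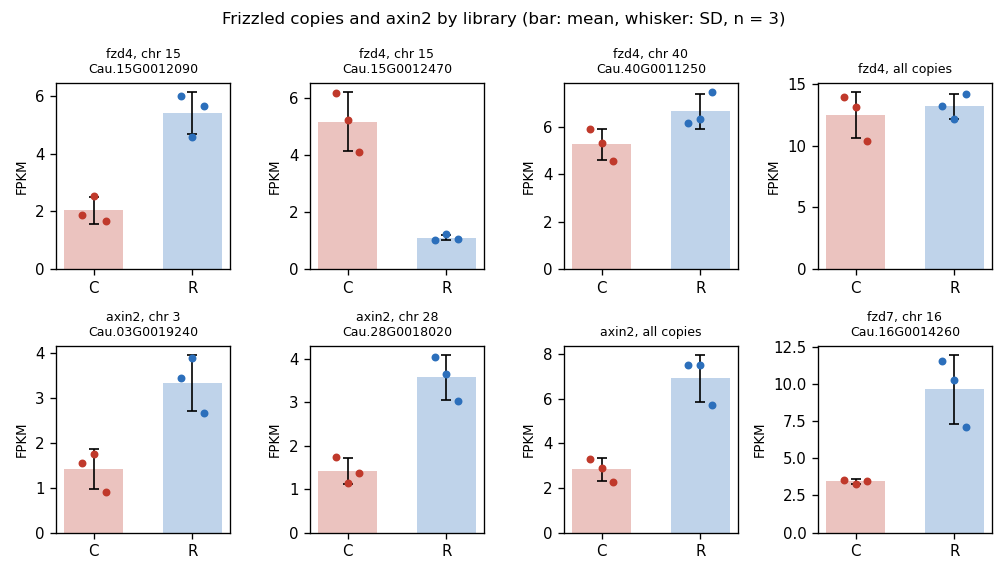
FPKM by library of the 3 fzd4 copies and their sum, of both axin2 copies and their sum, and of the fzd7-named piece of fzd1 on chromosome 16. Bars are means, whiskers SD (n = 3) and points single libraries. The chromosome 15 fzd4 models move in opposite directions and the sum over copies overlaps between groups, while both axin2 copies are lower in every C library.

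R-spondins and LGR receptors, the arm that strengthens Wnt signals at the cell surface, had 8 tested models of 12. Of these, 4 (50%) were lower in C and none was higher, against 11.6% and 8.67% of all tested models. The median log2 fold change was -0.59. The summed level was 17.3 ± 1.54 FPKM in C and 28.1 ± 5.13 FPKM in R (mean ± SD, n = 3 each). Rspo1 on chromosome 16 (Cau.16G0010360) had 1.21, 2.72 and 1.39 FPKM in C and 6.86, 5.78 and 3.37 FPKM in R, and was lower at -1.19 ± 0.29 (SE, adjusted p = 0.0251). Rspo2 on chromosome 41 (Cau.41G0009360, 360 bases) had 2.06, 2.55 and 2.02 FPKM in C and 3.67, 7.18 and 4.42 FPKM in R, and was lower at -0.89 ± 0.23 (SE, adjusted p = 0.0317). Neither overlapped between groups. The rspo1 call was lost without C1, C3, R1 or R2, where adjusted p was 0.06 to 0.0912. The rspo2 call was lost without C1, C3, R2 or R3, where adjusted p was 0.0665 to 0.0913, and with quantile normalization or limma-voom on recovered reads, where it was 0.0521 to 0.125. Rspo3 on chromosome 16 (Cau.16G0011300), the highest model of this role, had 3.79, 5.47 and 4.49 FPKM in C and 3.53, 5.74 and 5.02 FPKM in R and was not called, with overlapping groups.

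Lgr4, an R-spondin receptor, was lower on both chromosomes. Chromosome 7 (Cau.07G0007280) had 1.73, 1.04 and 1.3 FPKM in C and 3.49, 2.7 and 2.74 FPKM in R, and chromosome 32 (Cau.32G0009000) had 1.19, 1.27 and 1.35 FPKM in C and 2.37, 2.38 and 2.29 FPKM in R. The log2 fold changes were -0.76 ± 0.19 (SE, adjusted p = 0.0273) and -0.56 ± 0.16 (SE, adjusted p = 0.0414). A short chromosome 7 piece (Cau.07G0007260, 300 bases) had 2.47, 1.02 and 1.21 FPKM in C and 1.36, 5.42 and 2.65 FPKM in R and overlapped between groups. The chromosome 7 call was lost without C2, R1, R2 or R3, where adjusted p was 0.063 to 0.0943, and with quantile normalization, where it was 0.0707. The chromosome 32 call was lost without C1, C2, C3, R1, R2 or R3, where adjusted p was 0.0519 to 0.123, and with no low-value filter, the median log2 ratio set to 0, quantile normalization or the replicate block, where it was 0.053 to 0.151.

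Secreted frizzled-related proteins, with Frzb, differed by gene and copy, and most models were not called. These proteins carry a frizzled-like domain and bind Wnts outside the cell. Of 9 tested models of 10, 3 (33.3%) were higher in C and 1 (11.1%) was lower, against 8.67% and 11.6% of all tested models. The log2 fold change was positive in 8 of the 9, with a median of 0.49 over the 9. In 4 of the 9 every C library lay above every R library, against 16.3% of all tested models. The summed level was 111.4, 117.7 and 85.5 FPKM in C and 71.0, 70.4 and 62.8 FPKM in R. These libraries did not overlap between groups.

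Frzb, also called Sfrp3 and known from cartilage, had the highest mean FPKM over the 6 libraries of all tested members. In every R library the dkk1 copy on chromosome 38, described below, was higher. The frzb model on chromosome 9 (Cau.09G0011050, chr9:26669413-26673195) had 42, 37.8 and 25.8 FPKM in C and 16.7, 18.5 and 15 FPKM in R. C was 2.1-fold the R level, with group values of 35.2 ± 8.4 FPKM in C and 16.8 ± 1.75 FPKM in R (mean ± SD, n = 3 each) and a log2 fold change of +1.00 ± 0.19 (SE, adjusted p = 0.00976). All C libraries were above all R libraries. The call held with each library left out in turn, with log2 fold changes of 0.86 to 1.21.

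Sfrp1, a Wnt-binding protein known from eye development in chick and fish, had 3 tested copies, 1 of them called higher. Chromosome 30 (Cau.30G0006680) had 25.5, 20.3 and 21.7 FPKM in C and 17, 16.7 and 13.6 FPKM in R. It was higher at +0.49 ± 0.14 (SE, adjusted p = 0.0433), a call lost without C1, C3, R1, R2 or R3, where adjusted p was 0.0627 to 0.128, and with no low-value filter, quantile normalization or the replicate block, where it was 0.0518 to 0.0798. Chromosome 10 (Cau.10G0004410) had 15.2, 15.6 and 13.1 FPKM in C and 13.9, 12.2 and 8.4 FPKM in R. Chromosome 35 (Cau.35G0004460) had 13, 12.9 and 11.5 FPKM in C and 11.9, 10.9 and 9.89 FPKM in R. These 2 overlapped and were not called.

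Sfrp5 on chromosome 13 (Cau.13G0009580) had 4.09, 5.4 and 5.01 FPKM in C and 1.35, 1.27 and 2.73 FPKM in R and was higher at +1.101 ± 0.23 (SE, adjusted p = 0.0149), a call lost without R1 or R2, where adjusted p was 0.0551 to 0.0588. Its chromosome 38 copy (Cau.38G0010450) had 1.27, 1.88 and 2.84 FPKM in C and 1.47, 1.3 and 2.27 FPKM in R, and the groups overlapped. Sfrp2 parted by copy. On chromosome 1 (Cau.01G0005870) it had 0.119, 1.72 and 0.102 FPKM in C and 3.67, 4.42 and 4.28 FPKM in R and was lower in C at -1.77 ± 0.35 (SE, adjusted p = 0.0119). C1 and C3 held almost none of it, and C2 more. On chromosome 26 (Cau.26G0001800) it had 8.42, 18.9 and 3.46 FPKM in C and 4.13, 3.52 and 4.27 FPKM in R, with C2 far above the rest, and was not called. On chromosome 40 (Cau.40G0011480) it had 1.54, 2.22 and 1.32 FPKM in C and 0.317, 0.894 and 1.01 FPKM in R, all C above all R but not called (adjusted p = 0.0902). The sfrp2 sum overlapped between groups.

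Markers of several cell types differed between the groups beside these inhibitors. Of 21 tested models of the stromal fibroblast and keratocyte list, 6 were higher and none was lower, with summed levels of 2200 to 3027 FPKM in C and 1294 to 1955 FPKM in R. Each of the 7 stromal names had a model. Col1a1 and col1a2 made up most of these sums, col1a1 with 1586, 1627 and 1148 FPKM in C and 861, 574 and 555 FPKM in R. Dcn and col5a1 overlapped between groups. Kera, lum and ogn were higher in every C library. Of 22 cartilage and sclera models, 4 were higher and 2 lower, with sums of 895 to 1296 FPKM in C and 700.3 to 898 FPKM in R, which overlap. Sox9, the cartilage regulator of that list, had 25.3, 29.7 and 16.8 FPKM in C and 42.0, 57.9 and 52.2 FPKM in R. Of 17 pigment epithelium and melanocyte models, 6 were higher and none was lower, with sums of 746 to 1393 FPKM in C and 605 to 647 FPKM in R. Dct of that list went the other way without a call, with 63.3, 121.7 and 110.7 FPKM in C and 162.7, 152.6 and 167.1 FPKM in R. Of 8 red blood cell models, 4 were higher and none was lower, with sums of 9160 to 23354 FPKM in C and 2547 to 5549 FPKM in R. Of 17 Mueller glia models, 8 were higher and 4 lower, and the sums of 931 to 1251 FPKM in C and 803 to 948 FPKM in R overlapped. Over all tested models 8.67% were higher and 11.6% lower. The part of these cell types in the SFRP and FRZB result was not tested.

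Dkk1, the secreted blocker of the co-receptors LRP5 and LRP6, had the largest change of the 95 tested members on the log2(FPKM + 1) scale. As a ratio of group means, wnt6, wnt10b, wnt7b, wnt7a, sfrp2 and wnt1 each held a tested model with a larger change. The chromosome 38 copy (Cau.38G0010660, chr38:26427721-26429322, plus strand) had 3.84, 10.1 and 7.44 FPKM in C and 48.5, 39.6 and 35.3 FPKM in R. The lowest R library was far above the highest C library. The group values were 7.14 ± 3.16 FPKM in C and 41.1 ± 6.77 FPKM in R (mean ± SD, n = 3 each), 5.76-fold lower in C, with a log2 fold change of -2.44 ± 0.29 (SE, adjusted p = 0.00154). It rests on 162 reads in C and 960 in R, a ratio of C to R per library total of 0.176 (exact 95% interval 0.148 to 0.208). The chromosome 13 copy (Cau.13G0009910, chr13:26467951-26469421) had 0.827, 0.266 and 0.591 FPKM in C and 3.05, 2.99 and 2.19 FPKM in R, with no overlap and a log2 fold change of -1.27 ± 0.21 (SE, adjusted p = 0.0056). Both calls held with each library left out, and the chromosome 38 value then ran from -2.71 to -2.11. The dkk1 models on chromosomes 12 and 37 were under the filter, with means of 0.721 to 0.848 FPKM in either group.

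Wif1, which binds Wnt proteins directly, was lower on chromosome 29 and not called on chromosome 4. The chromosome 29 models share 1 RefSeq locus. Cau.29G0003890 had 0.519, 2.0 and 1.73 FPKM in C and 5.99, 4.75 and 5.42 FPKM in R, at -1.46 ± 0.27 (SE, adjusted p = 0.00925). Cau.29G0003980 had 0, 0.494 and 0.55 FPKM in C and 2.04, 1.22 and 1.39 FPKM in R, at -0.93 ± 0.24 (SE, adjusted p = 0.030). Both were lower in every C library. The call of Cau.29G0003980 was lost without C1, R1, R2 or R3, where adjusted p was 0.0621 to 0.0942, and with a pseudocount of 0.1, quantile normalization or the replicate block, where it was 0.0635 to 0.0936. The chromosome 4 copy (Cau.04G0004330), which holds most wif1 reads, had 12.4, 18.2 and 12.5 FPKM in C and 13.8, 12 and 11.3 FPKM in R. Its groups overlapped, and the wif1 sum was not called (adjusted p = 0.322). Dkk2 was not called in either tested copy. The WIF and DKK models summed to 32.5 ± 7.83 FPKM in C and 72.0 ± 8.06 FPKM in R (mean ± SD, n = 3 each). Of the 7 tested, 4 (57.1%) were lower in C and none was higher, against 11.6% and 8.67% of all tested models. Of these 4, dkk1 on chromosome 13 and wif1 Cau.29G0003980 passed the filter through R alone. Among the 5 others, 2 (40%) were lower, against 9.32% of all tested models with at least 1 FPKM in a library of each group.

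**Figure D4:**
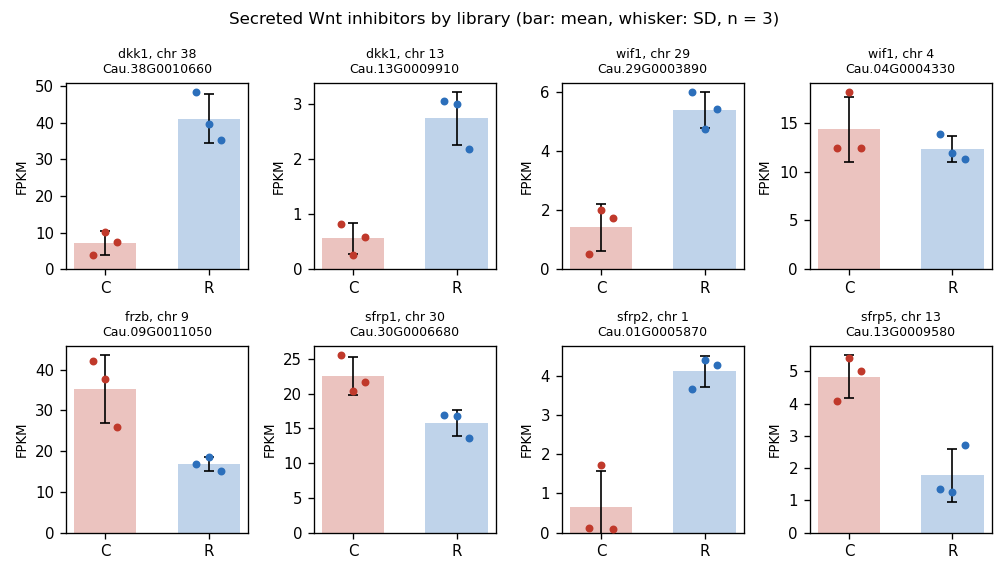
FPKM by library of 8 secreted inhibitor models, with bars for the mean, whiskers for SD (n = 3) and points for libraries. Both dkk1 copies, wif1 on chromosome 29 and sfrp2 on chromosome 1 are lower in every C library, frzb, sfrp1 and sfrp5 are higher in every C library, and wif1 on chromosome 4 overlaps.

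Axin2, the axin whose transcript is widely used as a readout of beta-catenin activity, was lower in both copies. Chromosome 3 (Cau.03G0019240, chr3:38525740-38542006) had 1.56, 1.75 and 0.905 FPKM in C and 3.45, 3.89 and 2.66 FPKM in R. Chromosome 28 (Cau.28G0018020, chr28:37888224-37905168) had 1.75, 1.15 and 1.37 FPKM in C and 4.06, 3.65 and 3.04 FPKM in R. No C library reached an R library in either copy. The log2 fold changes were -0.86 ± 0.21 (SE, adjusted p = 0.0267) and -0.92 ± 0.18 (SE, adjusted p = 0.0116). The chromosome 3 call was lost without C1, R1 or R2, where adjusted p was 0.0613 to 0.101, and the chromosome 28 call held in each case. The sum of both copies was 2.83 ± 0.523 FPKM in C and 6.91 ± 1.05 FPKM in R (mean ± SD, n = 3 each), 2.44-fold lower in C, at -1.05 ± 0.17 (SE, adjusted p = 0.00603), and was called with every library left out. Axin1, the constant partner in the destruction complex, holds the tested model with the highest mean FPKM among axins and TCF/LEF factors, Cau.28G0007220, with 6.08, 6.86 and 6.21 FPKM in C and 7.9, 7.38 and 7.79 FPKM in R. Axin1 was not called in either model or in sum (adjusted p = 0.137).

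TCF/LEF factors are the DNA-binding partners of beta-catenin. Of the 19 tested axin and TCF/LEF models, 2 were higher, both TCF, and 2 were lower, both axin2. That is 10.5% in each direction, near the 8.67% and 11.6% of all tested models. Tcf7l1b on chromosome 8 (Cau.08G0012390) had 7.16, 6.44 and 6.05 FPKM in C and 3.56, 4.16 and 3.62 FPKM in R, at +0.66 ± 0.14 (SE, adjusted p = 0.015). The call was lost without C1, R1 or R3, where adjusted p was 0.0509 to 0.0595. A second chromosome 8 model (Cau.08G0012400) had 6.73, 5.34 and 3.05 FPKM in C and 6.08, 3.58 and 5.45 FPKM in R, and the chromosome 33 copy (Cau.33G0011560) had 2.23, 2.31 and 1.81 FPKM in C and 1.92, 1.45 and 2.34 FPKM in R. Both overlapped between groups. The model Cau.21G0013190, named tcf7l2 by Swiss-Prot and tcf7 by RefSeq, had 7.64, 8.65 and 4.42 FPKM in C and 1.47, 1.55 and 3.99 FPKM in R, at +1.28 ± 0.33 (SE, adjusted p = 0.0308). This call was lost without C1, C2, R1 or R2, where adjusted p was 0.0733 to 0.107, and with the replicate block, where it was 0.0652.

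The other tested tcf7l2 models were not called. Cau.12G0008920 had 1.6, 1.83 and 1.04 FPKM in C and 2.07, 1.6 and 1.76 FPKM in R. Cau.37G0008010 had 2.87, 2.59 and 2.48 FPKM in C and 3.73, 3.5 and 3.09 FPKM in R, all C below all R. Cau.37G0008070 had 0.511, 1.81 and 0.146 FPKM in C and 1.31, 2.77 and 1.14 FPKM in R. The groups of the first and the last overlapped. Cau.46G0010820 had 6.16, 6.65 and 3.86 FPKM in C and 5.89, 6.92 and 6.62 FPKM in R. Cau.46G0010950 had 1.68, 0.202 and 1.62 FPKM in C and 0.403, 3.41 and 1.57 FPKM in R. These overlapped as well. Tcf7l1a on chromosome 10 (Cau.10G0010120), the TCF/LEF model with the highest mean FPKM, had 6.16, 7.91 and 5.84 FPKM in C and 6.07, 6.97 and 8.7 FPKM in R, also with overlap. Lef1 was called as a sum of 3 models, at 0.738, 3.27 and 2.0 FPKM in C and 3.74, 5.65 and 7.11 FPKM in R and -1.17 ± 0.34 (SE, adjusted p = 0.0441), but in none of them alone. The sum lost its call without C1, C3, R1, R2 or R3, where adjusted p was 0.0568 to 0.142, and with a pseudocount of 0.1, no low-value filter or quantile normalization, where it was 0.0532 to 0.0591.

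Summing the copies of each name sets aside how reads were split between same-name copies of equal length. Where 1 gene is listed in pieces, the FPKM of each piece is added, so that gene counts more than once. Of 44 names with a sum past the filter, 18 were lower in C and 5 higher, against 11.2% lower and 7.93% higher of all 12592 names tested. Besides those given above, the sums of wnt2, wnt3a, wnt4a, lgr4, rspo1 and rspo2 were lower and those of frzb, sfrp5, fzd9 and wnt2b higher. Of the 18 lower names, wnt1, wnt3a and wnt6 had sums under 1 FPKM in every C library. They passed the filter through R alone, so the lower count is partly set by the filter. The sums of axin2, dkk1, fzd7, wnt1, wnt10b, wnt11, wnt2, wnt4a, wnt6 and wnt7a, lower in C, and of frzb and wnt2b, higher in C, were called with every library left out in turn. The other called sums lost the call in at least 1 of these fits, each of which leaves a group with 2 libraries. The cause was not tested. Fzd10 lost its call without C1, R1 or R2, where adjusted p was 0.0648 to 0.0961. Fzd3 lost it without C1, C3, R1, R2 or R3, where adjusted p was 0.0668 to 0.14, and with no low-value filter, the median log2 ratio set to 0, quantile normalization or the replicate block, where it was 0.0501 to 0.0716. Fzd9 lost it without C1, R1, R2 or R3, where adjusted p was 0.0686 to 0.0763. Lgr4 lost it without R2 or R3, where adjusted p was 0.0519 to 0.0819. Rspo1 lost it without C1, C3, R1 or R2, where adjusted p was 0.0722 to 0.128. Rspo2 lost it without C1, R2 or R3, where adjusted p was 0.0503 to 0.0596. Sfrp5 lost it without C1, C2, C3, R1 or R2, where adjusted p was 0.0517 to 0.135. The count of lower names was 11 without C1 and 10 without R2, and that of higher names was 3 without C1 or R3 and 2 without R1 or R2. The fzd7 sum includes the piece at the RefSeq fzd1 locus described above, with 253 reads over the 6 libraries against 256 for the chromosome 9 model. In FPKM the shorter piece made up most of the sum, with means of 3.44 in C and 9.64 in R. The chromosome 9 model had means of 1.69 in C and 2.54 in R and was not called. The call of the fzd7 sum is therefore largely that of the fzd1 piece. Wnt3a reached the filter as a sum alone, at 0.127, 0.529 and 0.493 FPKM in C and 2.18, 1.71 and 1.12 FPKM in R, and its call was lost without C1, R1 or R2, where adjusted p was 0.0758 to 0.0823, and with quantile normalization, where it was 0.0601.

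Goldfish carry 2 sets of 25 chromosomes from a past genome duplication, and in these files many copies of a name sit on chromosomes numbered 25 apart. There were 40 pairs of tested members with the same name in that arrangement. They came from 28 names, and several pieces of a gene can pair with the same copy. In 6 pairs (15%) both copies were lower in C, in 17 (42.5%) 1 copy was called, in 17 neither was, and in none were the copies called in opposite directions. Among all 12425 same-name pairs of tested models in that arrangement, both copies were lower in 2.54%, 1 was called in 26.4%, and the calls were opposite in 0.748%. The 6 were wnt7a, wnt4a, wnt10b, lgr4, axin2 and dkk1, and in 3 of them (wnt4a, wnt10b and dkk1) a copy had passed the filter through R alone. Among 11 same-name pairs on 1 chromosome, 7 share a RefSeq locus and may be pieces of 1 gene, and the fzd4 pair above alone had opposite calls.

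**Figure D5:**
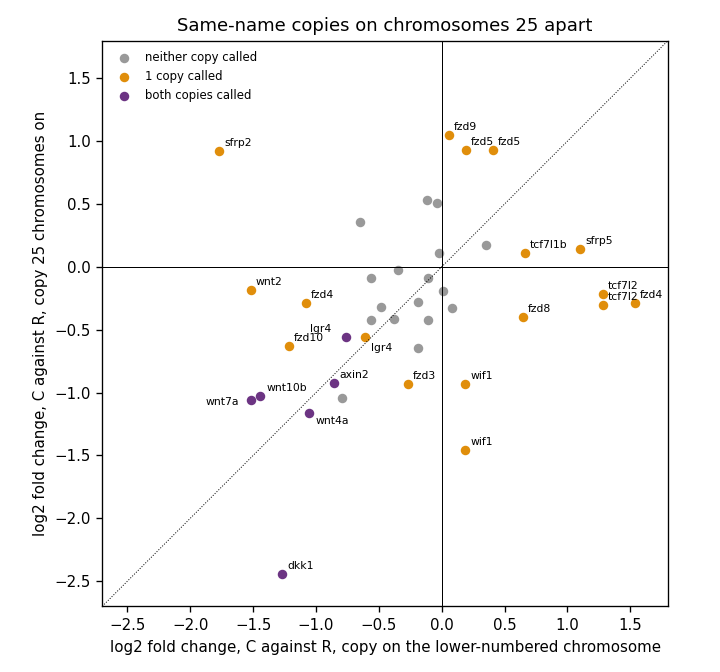
Log2 fold change, C against R, of the copy on the lower-numbered chromosome (x) and of the copy 25 chromosomes on (y) for 40 pairs of tested members. Purple pairs had both copies called, orange pairs 1 copy and grey pairs neither. The 6 purple pairs have negative values on both axes, and dkk1 is lowest.

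The members under the filter were not tested in the main comparison, and each had at most 98 reads over the 6 libraries. Among them, wnt5a (Cau.08G0014730, RefSeq wnt5a), a ligand known from the planar polarity branch, had 0.193, 0.836 and 0.165 FPKM in C and 1.95, 1.74 and 0.885 FPKM in R. The C libraries were all below the R libraries, but the model was below the filter of the test. The tcf7l1b-named model Cau.33G0011430 had no read in C and 27 in R, at 1.1, 3.73 and 0.765 FPKM in R1, R2 and R3. Another tcf7l1b-named model of chromosome 33, Cau.33G0011570, has the same length and protein match and went the other way. It had 17 reads in C and 2 in R, with every C library above every R library.

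Other genes of the pathway, taken from lists of secretion, co-receptor, modulator, turnover, destruction complex, nuclear, planar polarity and readout genes, were called about as often in each direction. Of 258 tested models, 20 were higher in C and 23 lower, against the same 8.67% and 11.6% of all models, with a median log2 fold change of -0.10. These counts are partly set by the filter. Some models called higher passed it through C alone, and some called lower through R alone. The split depended on scaling: it was 32 higher and 20 lower with the median log2 ratio set to 0, and 39 and 23 with limma-voom on reads recovered from FPKM. The counts were 13 higher and 8 lower without C1 or without R2, 12 and 6 without R1, and 13 and 5 without R3. None of 5 secretion models (porcn and wls) and none of 7 receptor turnover models (rnf43, znrf3 and tnfrsf19) was called.

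Among 21 co-receptor models, 1 was higher and 4 were lower. Of the lower ones, the adgra2 models Cau.33G0010670 and Cau.33G0010690 passed the filter through R alone, and the others were ndp models. For this and each list below, the shares of all tested models are 8.67% higher and 11.6% lower. Ndp, which encodes the fzd4 ligand Norrin, had 3.19, 2.85 and 2.73 FPKM in C and 7.88, 10.9 and 7.41 FPKM in R (Cau.34G0008910), lower in every C library at -1.29 ± 0.17 (SE, adjusted p = 0.00233). Reck, a co-receptor for Wnt7 in mouse and zebrafish, had 17.9, 17.6 and 14.9 FPKM in C and 8.86, 7.88 and 8.73 FPKM in R (Cau.24G0001180), higher in every C library at +0.91 ± 0.12 (SE, adjusted p = 0.00263). The other tested reck model (Cau.49G0001270) was also higher in every C library but was not called (adjusted p = 0.149). Of 22 secreted or surface modulators, 5 were higher and 1 was lower. Cthrc1, a secreted protein tied to the planar polarity branch in mice, had 38.1, 34.3 and 38.8 FPKM in C and 17.9, 8.18 and 7.96 FPKM in R (Cau.44G0010760), at +1.72 ± 0.27 (SE, adjusted p = 0.00509). Trabd2b, a protease that inactivates Wnts, had 2.32, 2.36 and 1.87 FPKM in C and 0.524, 0.739 and 0.796 FPKM in R (Cau.08G0005520), at +0.92 ± 0.17 (SE, adjusted p = 0.0101). In both cthrc1 and trabd2b, every C value was above every R value. This trabd2b model passed the filter through the C libraries alone.

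Inside the cell, 67 models of the destruction complex and Dishevelled list held 5 higher and 3 lower. Among the higher ones, dact2 (Cau.39G0006980) passed the filter through C alone. Ctnnb1 on chromosome 19 (Cau.19G0005840, RefSeq ctnnb2), a beta-catenin gene, had 37.6, 40.4 and 33 FPKM in C and 19.1, 19.1 and 18.4 FPKM in R, higher at +0.93 ± 0.12 (SE, adjusted p = 0.00185). The other tested ctnnb1 models overlapped between groups and were not called, at 24.1, 33 and 19.6 FPKM in C and 28.2, 29.7 and 26 FPKM in R (Cau.16G0003130), and 20.2, 22 and 19.8 FPKM in C and 23, 21.4 and 21.6 FPKM in R (Cau.41G0002130). Apc on chromosome 10 (Cau.10G0012010), a scaffold of the complex, had 16.6, 18.8 and 14.2 FPKM in C and 25.8, 27.3 and 32.2 FPKM in R, lower at -0.75 ± 0.14 (SE, adjusted p = 0.0105). The groups of this apc model and of ctnnb1 on chromosome 19 did not overlap. The other tested apc models were not called, with adjusted p from 0.124 to 0.538. Of 41 nuclear partners, 1 was higher and 3 were lower. The Groucho-type corepressors tle3 (Cau.18G0003680) and tle3a (Cau.43G0004630) had 1.12, 1.43 and 1.91 FPKM in C and 3.1, 3.36 and 4.76 FPKM in R, and 5.77, 5.9 and 5.92 FPKM in C and 8.97, 8.69 and 8.13 FPKM in R, with log2 fold changes of -0.93 ± 0.21 (SE, adjusted p = 0.019) and -0.48 ± 0.12 (SE, adjusted p = 0.0264). All C libraries were below all R libraries in both. On chromosome 18 the models Cau.18G0003700 (tle3b) and Cau.18G0003710 (tle3a) follow the tle3 model, and RefSeq names both tle3a. Both overlapped between groups and were not called, at log2 fold changes of -0.41 and +0.14. Whether these and the tle3 model are pieces of 1 gene was not tested. The tle3 call was lost without C1, R2 or R3, where adjusted p was 0.056 to 0.0655, and with quantile normalization, where it was 0.0532. The tle3a call was lost without C1, C2, R1, R2 or R3, where adjusted p was 0.0501 to 0.0954, and with the median log2 ratio set to 0 or the replicate block, where it was 0.0536 to 0.0606.

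The planar polarity and calcium branch had 72 tested models, 2 higher and 10 lower, against 8.67% and 11.6% of all tested models. Prickle2, a core planar polarity protein, had 0.445, 0.385 and 0.0381 FPKM in C and 3.25, 2.49 and 2.52 FPKM in R (Cau.08G0014210), lower in every C library at -1.55 ± 0.20 (SE, adjusted p = 0.00222). This prickle2 model passed the filter through R alone. So did nfatc2 (Cau.31G0013250), also called lower, while nfatc1 (Cau.19G0005170), called higher, passed it through C alone. Rac1, a small GTPase, had 10.6, 16.4 and 12.2 FPKM in C and 5.77, 6.51 and 5.01 FPKM in R (Cau.03G0019070), higher at +1.04 ± 0.18 (SE, adjusted p = 0.00656). Another rac1 model (Cau.31G0005450) went the other way, with 1.66, 1.81 and 0.474 FPKM in C and 3.5, 3.0 and 3.32 FPKM in R, lower at -0.94 ± 0.26 (SE, adjusted p = 0.0427), a call lost without C1, R1, R2 or R3, where adjusted p was 0.0656 to 0.118, and with a pseudocount of 0.1, no low-value filter or the replicate block, where it was 0.0549 to 0.0717. The remaining 4 tested rac1 models were not called. Transcripts often used as Wnt readouts numbered 30, with 6 higher and 2 lower. Sp5, a transcription factor, had 5.18, 3.23 and 4.28 FPKM in C and 0.829, 0.433 and 0.72 FPKM in R (Cau.09G0000810), 6.4-fold higher at +1.64 ± 0.21 (SE, adjusted p = 0.00186). The sp5 model passed the filter through the C libraries alone, so its call is partly set by the filter. Mycb had 37.3, 28.3 and 27.1 FPKM in C and 11.9, 14.7 and 11.4 FPKM in R (Cau.06G0011980), at +1.22 ± 0.16 (SE, adjusted p = 0.00241). Both were higher in every C library, in the opposite direction to axin2.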

How the data were processed

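RNA of goldfish eyeballs was sequenced in 6 libraries. The deposited table gives FPKM values per gene model, per the file headers, with positions, lengths and best protein matches. The submitters' processing notes name Bowtie 0.12.5, TopHat2 2.0.9 and DESeq 1.10.1 without roles, and the pig build Sscrofa10.2, which does not match goldfish models. Which assembly, counter and strand option was used was not given in the sources used here, so overlapping antisense genes and near-identical copies may share reads. FPKM times length, divided by the value of 1 read fitted per library, gave whole reads for 100% of values (tolerance 0.01 read). Names are from Swiss-Prot matches. The RefSeq table of ASM336829v1 was used for names only; 111 members had an accession in it.

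Models with at least 1 FPKM in 3 of 6 libraries were tested with limma 3.58.1 in R 4.3.3 (lmFit, eBayes with trend and robust, 2-sided) on log2(FPKM + 1), group as the only term, Benjamini-Hochberg over 33907 models, called at an adjusted p under 0.05. Fold changes on this scale understate those of low models, and folds on group means are of FPKM. Name sums were fitted likewise. Scripts were tested on simulated data. Named with values are all called members, tested copies of the same name, the highest of each role, and up to 2 models with the smallest p per pathway list. Further models of rac1, ctnnb1, tle3a, tle3b, apc and reck, and the single marker genes, were named after their values were seen. The fzd1 model Cau.16G0014270, the tcf7l1a model Cau.10G0010120 and some members under the filter are also given outside this rule. Members and lists were chosen with earlier results of these data known. The closing section gives the alternatives.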

Additional observations from a re-analysis of the deposited data

How the results depend on the processing

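None of the 39 called members changed sign under any alternative that tested it, of 508 values in all, and 94 of these values passed the threshold no longer. Under every alternative that tested them, 19 of the 39 stayed called and 20 lost the call in at least 1; the cause was not tested. With a mean of at least 5 FPKM, which tests fewer models, calls were 1959 higher and 1711 lower over all models, 4 and 3 among 21 members, 3 and 8 among names, and 12 and 12 among pathway models. In that fit 14.3% of members and 10.15% of all models were lower, and lower member calls did not outnumber higher ones. The pathway count higher in C was 32 with the median ratio set to 0 and 39 with limma-voom, whose members were 11 higher and 27 lower. Leaving out 1 library, which leaves that group with 2, gave 1628 to 3163 higher and 1929 to 4056 lower over all models, 4 to 10 and 17 to 28 among members, 2 to 4 and 10 to 18 among names, and 12 to 29 and 5 to 29 among pathway models. The member count lower in C was 17 without R2, and the count higher was 4 without C1, R1 or R2 and 6 without R3. Without R2, 17.9% of members and 5.69% of all models were lower. A mean of at least 1 FPKM, chosen after seeing the data, gave 11 higher and 23 lower among 87 members, against 8.41% and 11% of all models. Name sums were not fitted with limma-voom.

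The labels do not say whether the replicate numbers pair the libraries. Deviations from the group means correlated at -0.0052, 0.0989 and 0.0394 between same-numbered libraries, and at -0.112 to 0.0673 between the others. No pairing was evident, but these values cannot exclude one. With the number as a replicate block, calls were 2592 higher and 3379 lower over all models, 7 and 26 among members, 6 and 17 among names, and 18 and 14 among pathway models.

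Depth limits the low members: 74 of the 95 tested had a mean under 5 FPKM, and the shortest was 222 bases long.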
